A study of Drosophila melanogaster with 8 samples.

Results

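The regions described here are the stretches of chromosome arm 3R of Drosophila melanogaster in which almost no transcription initiation was seen. The arm was divided into consecutive windows of 10 kb from 0.4 Mb (dm3) onward, both strands together. Members were chosen by their tag counts. A window was kept when no single position and strand held more than 20 tags over the 8 libraries and at least 1 tag was present. Windows that touch the stretches from 2.48 to 2.83 Mb or from 12.48 to 12.815 Mb were left out. By this rule 1241 of 2676 tagged windows of 3R (46.4%) were nearly silent, and they covered 12.4 Mb. Only 2 further windows of the arm held no tag, and 15626 tagged windows of 10 kb were found over all sequences of the genome. Since the rule uses the tags themselves, the low level of these windows is a description and not a finding.

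Cap analysis of gene expression (CAGE) reads short tags from the capped 5′ ends of RNA, and the first base of a tag gives the position and strand of a transcription start site (TSS). The libraries were made from bulk cultures of S2 cells, a cell line derived from fly embryos, so that expression in few cells and low expression in all cells cannot be told apart. All cultures received double-stranded RNA (dsRNA), with serum added after 6 h, were treated again 2 days later and were harvested 4 days after the first treatment. By their labels, 4 libraries come from controls that received 40 µg of dsRNA against GFP, and 4 from cells that received 20 µg each of dsRNA against Rrp6 and Dis3, the catalytic subunits of the RNA exosome. The depletion was transient and was done in this 1 cell line. The labels run opposite to the expression table published with the study, since all 4 libraries labelled control match columns named KD there and all 4 labelled exosome knockdown match columns named GFP. The same labels also run opposite to the names under which the data were deposited. Libraries are therefore called control-labelled and knockdown-labelled throughout, and a higher value in the control-labelled libraries is a higher value in what that table calls KD. The match rests on values in that table that are whole tags for 1 library only, within 0.02 tags. Levels of Rrp6 and Dis3 were not analysed here, because no gene annotation of dm3 was used. For the same reason windows are given by position, with no gene names and no sequence.

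The exosome degrades RNAs from the 3′ end in the nucleus and cytoplasm. It is known for removing short-lived RNAs, such as promoter upstream transcripts (PROMPTs), which start upstream of and antisense to genes, and enhancer RNAs (eRNAs), which start at enhancers. In a given cell line, long stretches of a chromosome arm lie between active genes, in silent genes or in introns. Such stretches are where weak starts stand out from, or are lost in, tags scattered at low density.

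The 1241 windows held 109872 tags, and a typical window held few. The median was 63 tags per 10 kb over the 8 libraries, with quartiles of 48 and 88 tags and a range from 1 to 1133. These tags were spread thinly, since a median of 48 positions per window was tagged and the strongest position of a window held a median of 4 tags. A total of 1009 windows (81.3%) held at most 100 tags. The 87 windows with over 200 tags held 29.0% of all tags in the 1241 windows. The other 1435 tagged windows of the arm had a median of 12008 tags. The name nearly silent therefore holds for most windows but not in the same way for all of them.

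**Figure D1:**
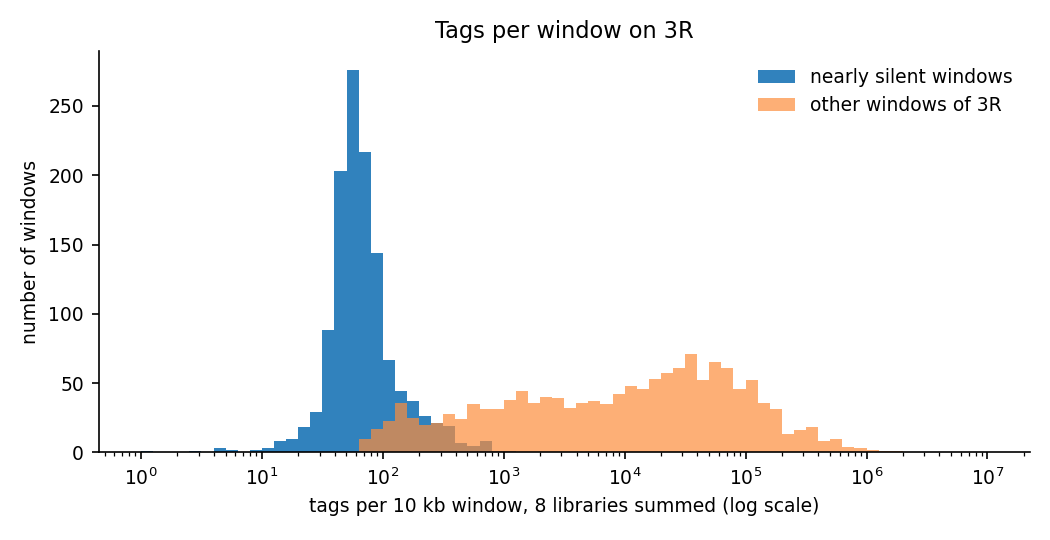
Number of windows of 3R (vertical axis) by their tags per 10 kb, summed over the 8 libraries (horizontal axis, log scale). The nearly silent windows (blue) gather around their median of 63 tags with a tail up to 1133 tags, while the other windows (orange) spread around a median of 12008 tags.

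At the limit of the rule the 2 kinds of windows had similar totals. There were 17 windows whose strongest position held exactly 20 tags, with between 25 and 716 tags in all, and 8 windows with 21 tags at that position, with between 71 and 733 tags in all. Just inside the limit were the windows from 4220001 to 4230000 with 716 tags and from 27540001 to 27550000 with 705 tags. Just outside were the windows from 19910001 to 19920000 with 733 tags and from 20600001 to 20610000 with 562 tags. The last of these held 173 tags in control-labelled replicate 4 and 178 tags in knockdown-labelled replicate 4, against 19 to 72 tags in the other 6 libraries.

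Nearly silent windows were found along the whole arm. In successive stretches of 2.5 Mb they made up between 37.2% and 52.4% of the tagged windows, and their median ranged from 54 to 75 tags. They formed 386 runs of adjacent windows, of which 153 were single windows and 25 had at least 10 windows. These 25 runs held 323 of the 1241 windows. The longest runs were 170 kb, and there were 3 of them. The run from 24170001 to 24340000 held 1679 tags, with 43 to 291 tags per window, and the run from 15890001 to 16060000 held 923 tags, with 9 to 121 per window. In tags per library, the first of these runs had 4.41, 6.38, 5.24 and 8.59 TPM in control-labelled and 4.30, 7.54, 2.39 and 4.02 TPM in knockdown-labelled replicates 1 to 4, so that the groups overlapped. The remaining run of that length, from 10730001 to 10900000, was the most even and held 27 to 72 tags per window.

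Windows beside an active window, one with more than 20 tags at a position, held more tags than those farther away. The 616 windows that adjoin an active window had a median of 71 tags, with quartiles of 52 and 111.5 tags. The 271 windows 2 places away had a median of 59 tags, the 229 windows 3 or 4 places away had 57 tags, and the 125 windows 5 to 9 places away had 54 tags. Nearly all windows of the upper tail lay next to active ones, as 76 of the 87 windows with over 200 tags did. Neighbouring windows are not independent, and these medians are a description without a test.

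The share of a library that fell in these windows varied more between libraries than between the groups. It was 265 TPM (tags per 1000000 tags of the library), 355 TPM, 348 TPM and 540.5 TPM in control-labelled replicates 1 to 4. It was 344 TPM, 459.8 TPM, 173 TPM and 309 TPM in knockdown-labelled replicates 1 to 4. The groups overlapped widely, with means of 377 ± 116 TPM in the control-labelled libraries and 322 ± 118 TPM in the knockdown-labelled ones (SD, n = 4 each), so that their difference is smaller than either SD. No p is given for a sum over the windows, since the windows were chosen with results of these data known. The libraries at the 2 ends of the range differed 3.12-fold, although their totals, 36806292 tags for control-labelled replicate 4 and 38464461 tags for knockdown-labelled replicate 3, were alike. Over all 8 libraries the totals ranged from 33565925 to 46388382 tags. Between 6671 and 19892 tags of a library lay in the windows.

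The lowest and the highest library of each group carried the same barcodes. Each of the 4 barcodes was used once in each group. The lowest level in each group was that of barcode CTT, with 265 TPM in the control-labelled library and 173 TPM in the knockdown-labelled one. The highest in each group was that of ATC, with 540.5 TPM and 459.8 TPM. Barcodes ACG and GAT lay between them in both groups. Within every barcode the control-labelled library was the higher of the pair, by 1.01-fold for ACG, 1.15-fold for GAT, 1.18-fold for ATC and 1.53-fold for CTT. This does not hold when totals are multiplied by TMM factors (edgeR's scaling between libraries, used in the test), which gives 328 against 343 TPM for ACG and 418 against 468.3 TPM for ATC. The group means were then 343 and 339 TPM. The part of the barcode in these levels was not tested. By the labels 4 libraries were pooled for sequencing, and which libraries shared a pool is not stated in the sources used here.

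The same libraries stood at both ends on other arms, whose tags the rule for 3R did not use. When the rule was applied to 2L, 2R, 3L and X, it kept between 39.1% and 48.1% of tagged windows, with medians of 54 to 59 tags. Windows on these arms started at the same position as on 3R, but no stretch was left out, so the sets are not fully alike. On all 4 arms control-labelled replicate 4 had the highest level per window, from 0.415 to 0.466 TPM, and knockdown-labelled replicate 3 the lowest, from 0.121 to 0.151 TPM. The values on 3R were 0.435 TPM and 0.140 TPM per window. With a median of 63 tags, the windows of 3R were slightly above those of the other arms, and whether this difference exceeds chance was not tested.

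Most of the tags stood alone. Of 77796 tagged positions in the windows, 59097 (76.0%) held a single tag over the 8 libraries, and 72355 (93.0%) were seen in 1 library only. Positions seen in a single library held 80.2% of the tags. Only 1430 positions held 5 tags or more, and only 11 positions were tagged in all 8 libraries. A position with 2 tags had both of them in the same library in 11162 of 13256 cases (84.2%). The authors' methods name no removal of duplicate reads, so such pairs are not necessarily separate molecules. Among positions seen in a single library, the share with at least 2 tags was 17.8%, 17.2%, 17.2% and 12.2% in control-labelled and 22.0%, 15.5%, 36.4% and 27.2% in knockdown-labelled replicates 1 to 4. The library with the fewest scattered tags had the highest share, and the one with the most had the lowest. Positions with a single tag are part of the whole over which this share is taken, so that order follows in part from the counting itself.

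The libraries differed more in these lone tags than in the positions tagged repeatedly. Single-tag positions contributed 133 TPM, 196 TPM, 188 TPM and 352 TPM in control-labelled replicates 1 to 4, and 175 TPM, 287 TPM, 49.2 TPM and 131 TPM in knockdown-labelled replicates 1 to 4, a 7.16-fold range. Positions of 5 to 9 tags contributed between 16.5 and 24.2 TPM, a 1.47-fold range over the 8 libraries. Positions of 10 to 20 tags contributed between 10.8 and 17.2 TPM. Windows showed the same gradient. In windows of 26 to 50 tags the highest library exceeded the lowest 6.23-fold, and in windows of over 200 tags 1.54-fold, with control-labelled replicate 4 highest and knockdown-labelled replicate 3 lowest in both classes. In the latter library 303 of the 1241 windows (24.4%) held no tag, against 4 to 43 windows in each of the other 7 libraries. By counting error, a window listed at 0 in a library may still have an expected 3 tags there.

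**Figure D2:**
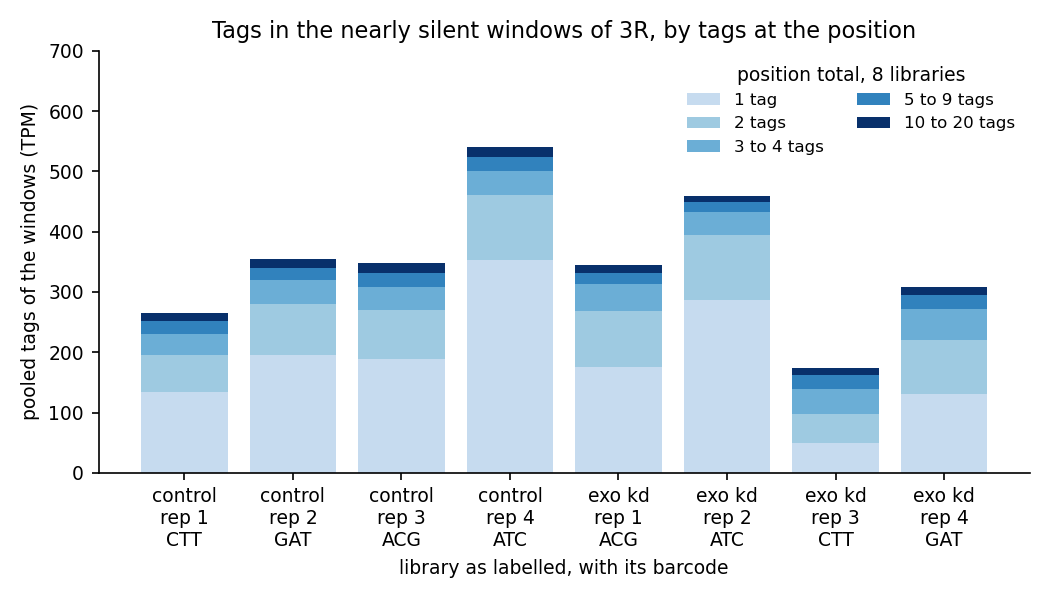
Tags of the nearly silent windows per library, in TPM (vertical axis), stacked by how many tags the position held over the 8 libraries, with each library's barcode below it (exo kd, labelled exosome knockdown). The pale part, positions with a single tag, ranges from 49.2 to 352 TPM, while the darkest, 10 to 20 tags, stays between 10.8 and 17.2 TPM.

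Where positions were tagged in at least 2 libraries, the groups came apart on the scale of library totals. Such positions contributed 68.8, 71.2, 75.8 and 83.7 TPM in control-labelled replicates 1 to 4, and 61.1, 60.7, 57.5 and 66.8 TPM in knockdown-labelled replicates 1 to 4. Every control-labelled library was above every knockdown-labelled one, and the ratio of the means was 1.22. This rests on the library totals, since with TMM factors the values were 73.7, 68.6, 71.3 and 64.8 TPM against 60.9, 61.8, 69.9 and 72.1 TPM, which overlap. These positions were picked out with the data in view, and no test is given.

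The number of tagged positions depends on depth and on the level of scattered tags. It ranged from 4298 in knockdown-labelled replicate 3 to 16933 in control-labelled replicate 4. After random thinning of every library to the smallest total (33565925 tags), the numbers ranged from 3932 to 15623 and the same 2 libraries were at the ends. The groups overlapped in both counts. Mean tags per tagged position ran the other way, from 1.17 in control-labelled replicate 4 to 1.55 in knockdown-labelled replicate 3.

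Both strands were used almost evenly. Of all tags in the windows 50.3% lay on the plus strand, and the share per library ranged from 49.7% to 52.1%, with means of 50.4% ± 0.470 in the control-labelled and 50.5% ± 1.12 in the knockdown-labelled libraries (SD, n = 4 each). The highest share was that of knockdown-labelled replicate 3, the library with the fewest tags in the windows. Single windows were less even. Among the 236 windows with at least 100 tags, the plus strand share had quartiles of 38.8% and 61.7% and ran from 20.9% to 89.8%. In 27 of them the plus strand was ahead in each of the 8 libraries, and in 17 the minus strand was. No window of this size was under 20% plus, and 6 were above 80%.

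Windows with the most uneven strands held between 0 and 8 clusters of tags, which are defined further on. The window from 16680001 to 16690000 had 89.8% of its 127 tags on the plus strand, and a single cluster of positions from 16686044 to 16686052 on that strand held 58 tags in the control-labelled and 3 tags in the knockdown-labelled libraries. The window from 3920001 to 3930000 had 85.3% of 204 tags on the plus strand, and the window from 21330001 to 21340000 had 84.4% of 154 tags there. The windows with the most minus strand tags were from 19420001 to 19430000 with 20.9% plus, from 7940001 to 7950000 with 23.3% plus and from 9930001 to 9940000 with 24.0% plus. They held 110, 150 and 121 tags. Of these 6 windows only that from 16680001 differed between the groups by the test below.

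Do weak starts inside the nearly silent windows change with the state of the exosome? To ask this, tags were merged on each strand within 20 bp, and clusters with at least 10 tags in at least 2 libraries were kept, a rule set with the data in view. There were 918 such clusters in 335 windows, 482 on the plus and 436 on the minus strand, with a median of 15 tags and a median width of 28 bp. They held 17.9% of the tags in the windows. The remaining 906 windows had no cluster and a median of 56 tags, and their plus strand share was between 49.5% and 50.4% in every library.

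Summed over the windows, clusters had more tags in the control-labelled libraries on the scale of library totals. Together they had 69.2 ± 8.10 TPM in the control-labelled and 53.8 ± 3.64 TPM in the knockdown-labelled libraries (SD, n = 4 each), with ranges of 62.3 to 78.7 TPM and 51.2 to 59.1 TPM that did not overlap. With TMM factors the groups overlapped, at 64.2 ± 4.18 TPM and 57.9 ± 6.28 TPM (SD, n = 4 each). The tags outside clusters had 308 ± 110 TPM and 268 ± 118 TPM and overlapped. In 100 clusters (10.9%) every control-labelled library exceeded every knockdown-labelled one, and in 35 (3.81%) the reverse held. Over the 195507 clusters that the same rule gives on all sequences, these shares were 18.4% and 6.46%. With TMM factors the shares were 9.80% and 4.79% for the clusters of the nearly silent windows and 16.3% and 8.22% over all sequences. A further measure was the number of clusters absent from a group. There were 65 clusters (7.08%) without any tag in the knockdown-labelled libraries and 2 clusters (0.218%) without any in the control-labelled libraries, where all sequences gave 5.73% and 0.328%. A cluster absent from a group reached the 10 tags of the rule through the other group alone. These shares therefore describe the clusters kept and are no support for a difference between the groups. Groups without overlap were thus less common among the clusters of the nearly silent windows than among clusters in general, in both directions, while the share without a tag in the knockdown-labelled libraries was slightly above the general one. These differences were not tested, and clusters were not matched for their number of tags. Those of the nearly silent windows held a median of 15 tags and came from windows chosen to lack strong positions. No such limit held for the clusters over all sequences. How far low counts alone set these shares apart was therefore not tested. Of the 482 plus strand clusters, 71 (14.7%) had a minus strand summit upstream within 250 bp and 90 (18.7%) had one downstream within 250 bp.

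Changes per window were tested with edgeR's quasi-likelihood test on raw tags over all windows of the genome with at least 10 tags. Of 1232 nearly silent windows tested, 20 were higher and 17 were lower in the control-labelled libraries at a Benjamini-Hochberg adjusted p of 0.05. Fold changes are control-labelled over knockdown-labelled and are given with their standard error (SE). These 37 windows are 3.00% of those tested, where 25.8% of all 13860 windows passed (15.3% higher and 10.5% lower). Few tags stood behind most windows, with a median standard error of 0.61 for the log2 fold change. Of the windows with at most 100 tags 7 of 1000 (0.70%) passed, and of those with over 200 tags 20 of 87 (23.0%) did. The called windows had a median of 232 tags, and 28 of the 37 held a cluster. Groups did not overlap in TPM in 42 windows that were higher and 13 that were lower in the control-labelled libraries, where 20.1% and 9.26% of all windows did so. With TMM factors these were 37 and 34 windows, where 15.2% and 12.0% of all windows did so.

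The split into higher and lower differed between scalings. With TMM normalization the median log2 fold change was -0.02 for the nearly silent windows and 0.07 for all windows. With library totals alone the medians were 0.20 and 0.28, and 22 windows were higher and 5 lower. With DESeq2, which changes both the scaling and the test, they were -0.07 and -0.0016, and 23 windows were higher and 27 lower. The median of the nearly silent windows was below that of all windows in these 3 fits, but above it, at 0.27 against 0.16, without knockdown-labelled replicate 2. TMM factors ran from 0.823 in knockdown-labelled replicate 3 to 1.29 in control-labelled replicate 4, the libraries with the lowest and the highest level in the windows. Among the alternatives that left out 1 library, the number of lower windows fell to 8 without control-labelled replicate 1 or 2 and to 10 without knockdown-labelled replicate 1.

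**Figure D3:**
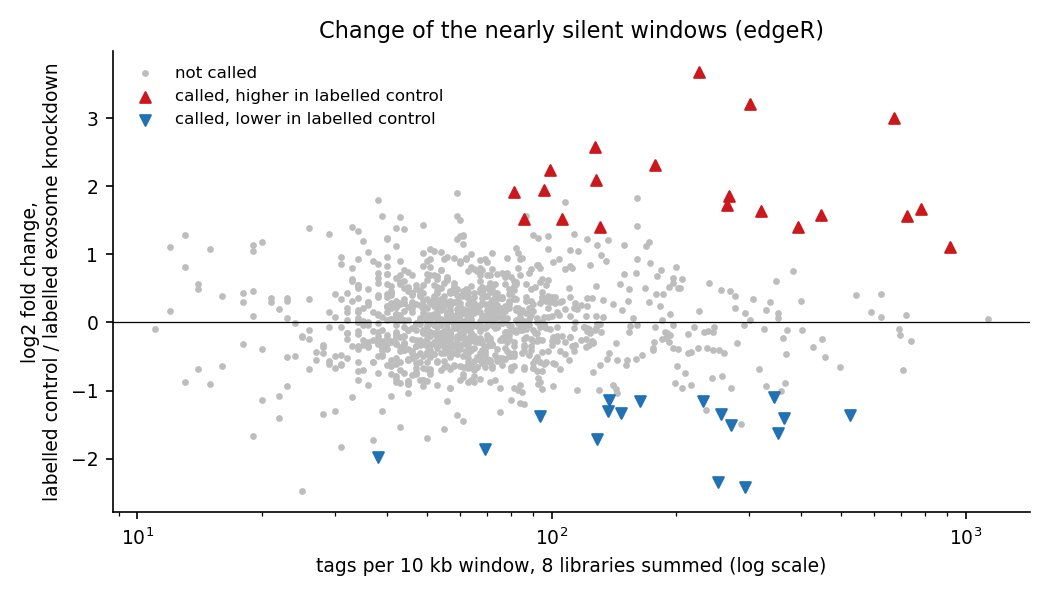
Log2 fold change of each nearly silent window, control-labelled over knockdown-labelled libraries (vertical axis), against its tags over the 8 libraries (horizontal axis, log scale), for the 1232 windows tested. The 20 windows called higher (red) and the 17 called lower (blue) lie mostly at the right, where windows hold over 100 tags.

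With the strands apart, 37 strand windows were higher and 21 lower of 2408 tested, 2.41% where 25.7% of all strand windows passed in the same edgeR test (15.8% higher and 9.94% lower). They lay in 44 windows. In 14 of these both strands passed, always in the same direction, and in 30 a single strand did. The plus strand carried 32 of the calls and the minus strand 26.

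The window with the lowest adjusted p lies from 9840001 to 9850000. It held 133, 127, 243 and 109 tags in control-labelled replicates 1 to 4 and 16, 18, 11 and 15 tags in knockdown-labelled replicates 1 to 4. The groups lay far apart, with a log2 fold change of 3.00 ± 0.36 (SE, edgeR adjusted p = 4.74e-05). The change was larger on the plus strand, with 270 tags against 4, than on the minus strand, with 342 tags against 56. Several separate starts made up the difference. The minus strand cluster from 9843415 to 9843514 held 28, 11, 42 and 22 tags in control-labelled replicates 1 to 4 and none in the other group. The plus strand cluster from 9843623 to 9843777, downstream of it, held 46 tags in the control-labelled libraries and 1 tag in the knockdown-labelled ones. This pair is a divergent arrangement, with a minus strand start upstream of a plus strand start. Another plus strand cluster, from 9842859 to 9842892, held 49 tags in the control-labelled libraries and none in the others. It lies before the same minus strand cluster, so that those starts face each other. Farther along, the minus strand cluster from 9849668 to 9849858 kept 2, 3, 0 and 5 tags in knockdown-labelled replicates 1 to 4 beside 13, 16, 40 and 19 tags in control-labelled replicates 1 to 4.

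The largest fold change among called windows without overlap was that of the window from 1810001 to 1820000. It held 35, 47, 55 and 77 tags in control-labelled replicates 1 to 4 and 5, 5, 0 and 3 tags in knockdown-labelled replicates 1 to 4, with a log2 fold change of 3.68 ± 0.55 (SE, edgeR adjusted p = 0.000251). Its minus strand cluster from 1815391 to 1815454 held 16, 6, 10 and 14 tags in control-labelled replicates 1 to 4 and none in the knockdown-labelled ones. The neighbouring window from 1800001 to 1810000 was higher in the same libraries, with 27, 32, 53 and 42 tags against 5, 11, 0 and 8 tags (log2 fold change 2.31 ± 0.60 SE, edgeR adjusted p = 0.0103). It held a single cluster, of 10 tags, and most of its tags lay outside clusters. Both windows share this 20 kb stretch and are not independent.

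The window from 9420001 to 9430000 held 88, 78, 62 and 48 tags in control-labelled replicates 1 to 4 and 13, 10, 1 and 1 tags in knockdown-labelled replicates 1 to 4 (log2 fold change 3.20 ± 0.60 SE, edgeR adjusted p = 0.00132). Starts on both strands lay within a short stretch here. The minus strand cluster from 9420454 to 9420548 held 90 tags in the control-labelled libraries and 2 in the others. The plus strand cluster from 9420374 to 9420430 held 17 tags and none. In the window from 16680001 to 16690000, the most one-stranded of those with at least 100 tags, the libraries held 29, 29, 35 and 19 tags against 6, 6, 2 and 1 tags (log2 fold change 2.57 ± 0.50 SE, edgeR adjusted p = 0.00174).

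Among called windows that were lower in the control-labelled libraries, the largest log2 fold change was -2.42, against 3.68 among the higher ones. The window from 8980001 to 8990000 held 1, 14, 27 and 15 tags in control-labelled replicates 1 to 4 and 62, 75, 73 and 26 tags in knockdown-labelled replicates 1 to 4 (log2 fold change -2.42 ± 0.60 SE, edgeR adjusted p = 0.00775). In TPM the groups did not overlap, although control-labelled replicate 3 and knockdown-labelled replicate 4 differed by 1 tag only. The plus strand cluster from 8988716 to 8988855 held 5 tags in the control-labelled and 35 in the knockdown-labelled libraries. The window from 27180001 to 27190000 held 1, 15, 11 and 24 tags against 38, 88, 41 and 34 tags (log2 fold change -2.34 ± 0.61 SE, edgeR adjusted p = 0.0106). Its neighbour from 27190001 to 27200000 held 4, 9, 10 and 13 tags against 20, 37, 15 and 21 tags (log2 fold change -1.71 ± 0.46 SE, edgeR adjusted p = 0.0123) and had no cluster. With library totals in place of TMM its edgeR adjusted p was 0.0500083 and the call was lost.

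The window from 5790001 to 5800000 was lower on both strands, with 19, 12, 27 and 25 tags against 58, 52, 34 and 44 tags (log2 fold change -1.51 ± 0.34 SE, edgeR adjusted p = 0.00468). The window from 8920001 to 8930000 held 31 tags in the control-labelled and 63 in the knockdown-labelled libraries (log2 fold change -1.37 ± 0.46 SE, edgeR adjusted p = 0.0436), and this call did not pass the threshold in 10 of 16 alternatives, among them 7 of the 8 that left out a library. Both it and the window from 8980001 belong to 1 run of 16 nearly silent windows from 8920001 to 9080000.

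**Figure D4:**
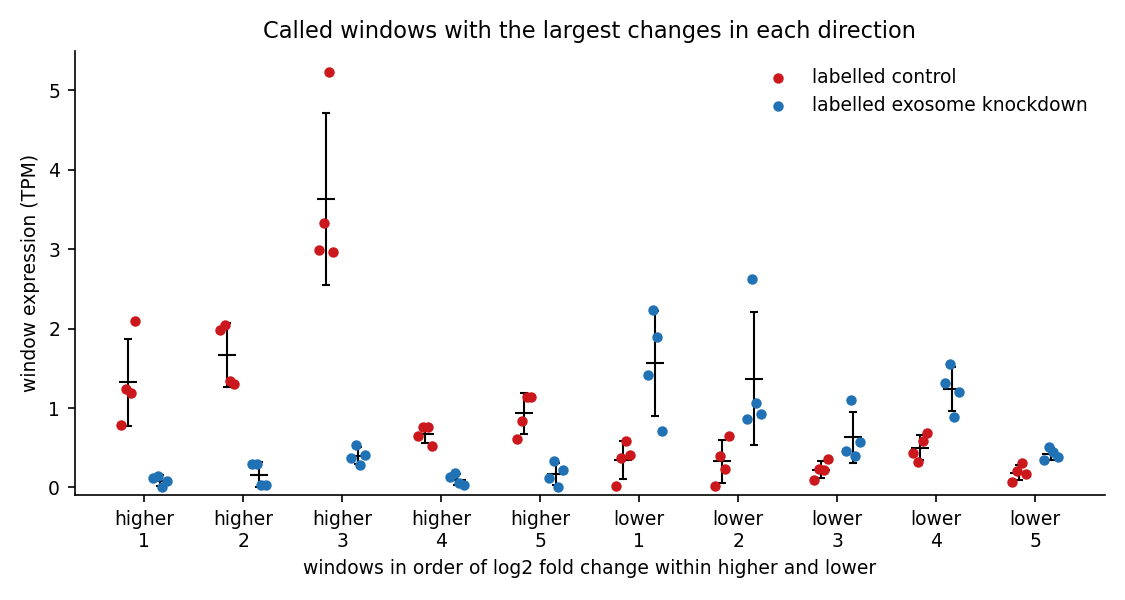
Expression in TPM (vertical axis) of the 5 windows with the largest positive and the 5 with the largest negative log2 fold change among called windows without overlap of the groups; points are libraries, horizontal marks the means and bars the SD (n = 4). In order, the higher windows start at 1810001, 9420001, 9840001, 16680001 and 1800001 and the lower ones at 8980001, 27180001, 27190001, 5790001 and 8920001.

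Among the 5 windows with the most tags, 3 were higher in the control-labelled libraries and 2 did not pass the test. The window from 20130001 to 20140000 held the most, with 170, 181, 218 and 69 tags in control-labelled replicates 1 to 4 and 149, 154, 140 and 52 tags in knockdown-labelled replicates 1 to 4. The groups overlapped here (log2 fold change 0.05 ± 0.42 SE, edgeR adjusted p = 0.960), while replicate 4 was the lowest library in both groups. Its minus strand cluster from 20133101 to 20133342 held 319 tags, the most of any cluster, and 14 and 15 of these came from the replicates numbered 4. The window from 1570001 to 1580000 held 380 tags in the control-labelled and 358 in the knockdown-labelled libraries (log2 fold change -0.27 ± 0.31 SE, edgeR adjusted p = 0.645).

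The other 3 windows were higher in the control-labelled libraries. The window from 4960001 to 4970000 held 153, 173, 175 and 170 tags in control-labelled replicates 1 to 4 and 55, 61, 52 and 79 tags in knockdown-labelled replicates 1 to 4 (log2 fold change 1.1 ± 0.30 SE, edgeR adjusted p = 0.0130). Its 23 clusters and 543 tagged positions were spread over the window. Nearby, the window from 4930001 to 4940000 held 144, 141, 248 and 93 tags against 35, 36, 62 and 20 tags (log2 fold change 1.66 ± 0.42 SE, edgeR adjusted p = 0.00895) and had 24 clusters, the most of any window. Both calls were lost without knockdown-labelled replicate 1, with edgeR adjusted p of 0.0713 for the window from 4960001 and 0.0514 for the window from 4930001, at log2 fold changes of 0.93 and 1.44. They were also lost when positions seen in a single library were left out, with adjusted p of 0.0728 and 0.0877. The window from 15500001 to 15510000 held 135, 119, 152 and 163 tags against 38, 36, 20 and 58 tags (log2 fold change 1.57 ± 0.34 SE, edgeR adjusted p = 0.00377). In all 3 windows both strands passed the test with the strands apart.

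Across windows the libraries agreed in part on which windows hold more tags. Over the 1241 windows Spearman's rho between libraries ranged from 0.426 to 0.605 with a median of 0.502, and between the summed groups it was 0.709. Windows share libraries and depth, and these values describe the windows without a test.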

How the data were processed

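CAGE was measured in 8 libraries of S2 cells. The deposited files give, for each base and strand, raw counts of tags that start there, with no normalization. Per the labels and the methods, the authors trimmed linkers, filtered reads on base quality, mapped them to dm3 with Bowtie 1.1.1 and kept unique hits. Repeats therefore carry few tags, and mappability was not analysed here. The reference given here was of another build, so no gene names, coordinates or sequences were taken from it.

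Tags were summed in windows of 10 kb, and windows with at least 10 tags over the 8 libraries were compared over all sequences. The test was the quasi-likelihood F test of edgeR 4.0.16 in R 4.3.3, with TMM scaling, its default prior for fold changes and Benjamini-Hochberg adjustment at 0.05. DESeq2 1.42.0 was an alternative. Standard errors were derived from the F statistic. In simulated windows of the whole table, the test recovered 25 of 100 changes of 1 and 56 of 100 changes of 2 on the log2 scale, with 3 false calls among 13730 windows. These include active windows, so recovery in the nearly silent windows alone was not measured. Simulated levels followed library totals, without the differences in scattered tags between libraries. Python 3.11.15, numpy 2.4.6, pandas 2.3.3 and matplotlib 3.10.9 were used. No library was a copy of another in its group, since every such pair differed beyond sampling noise. Over all windows the chi-square per degree of freedom was at least 64.3 times what sampling gives, and in the nearly silent windows at least 1.80 times. Pairs across the groups were not compared. Limits cover counting error only, as tags are not independent molecules. The study calls its replicates biological.

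Windows named are the 5 with most tags, the longest runs, the 5 called windows without overlap of the groups with the largest change in each direction, the 3 most one-stranded windows of at least 100 tags on each strand, and 2 on each side of the limit. Members, lists and tests were chosen with earlier results of these data known. Alternatives were other scalings, filters, limits and grids, a replicate block, and leaving out 1 library at a time; a barcode block, the removal of positions seen in a single library, and TMM-scaled levels of clusters and shared positions were added later. Levels in TPM use library totals unless TMM factors are named.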

Additional observations from a re-analysis of the deposited data

Results flagged for a closer look

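Among 60 groups of 4 values examined for a library far from the other 3, 4 had one, and chance gives about 1 in 20. Knockdown-labelled replicate 3 had no tag in 303 of the nearly silent windows, against 9, 9 and 43 in replicates 1, 2 and 4 of its group. In the window from 9930001 to 9940000 the same library had 0.208 TPM, against 0.433, 0.447 and 0.465 TPM in the others of its group. Control-labelled replicate 3 had 5.24 TPM in the window from 9840001 to 9850000, where the other control-labelled libraries had 2.99, 3.34 and 2.96 TPM. Knockdown-labelled replicate 2 had 2.62 TPM in the window from 27180001 to 27190000, where the others of its group had 0.866, 1.07 and 0.929 TPM.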

How the results depend on the processing

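Of 37 windows called by edgeR, 16 were called in each of the 17 settings, and no named window changed direction with a call. Leaving out 1 library gave 24 to 41 calls, of which 8 to 19 were lower in the control-labelled libraries, and 12 to 24 strand windows lower. Windows lower numbered 27 with DESeq2 and 5 with library totals, and strand windows lower 41 and 10. Without positions seen in a single library, an alternative chosen after seeing the data, 35 windows were higher, and 20 of its 49 calls were shared with the 37. The window from 8980001 then had an adjusted p of 0.0558. The cause of these shifts was not tested.

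With windows of 20 kb, 429 were kept, and they covered 8.58 Mb, against 12.4 Mb with windows of 10 kb. The mean level in control-labelled and knockdown-labelled libraries was 217 and 161 TPM for single-tag positions, 74.9 and 61.5 TPM for positions seen in at least 2 libraries, and 564 and 492 TPM at a limit of 40 tags. At a limit of 10 tags it was 253 TPM in the control-labelled libraries. With TMM factors, tried for these results after seeing the data, 34 windows were lower without overlap, and the knockdown-labelled means were 57.9 TPM for clusters and 66.2 TPM for positions seen in at least 2 libraries.

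The replicate block gave 41 windows (22 higher and 19 lower), of which 34 were among the 37. Equal replicate numbers had correlations of deviations of -0.07, 0.20, 0.17 and 0.33 over all windows. Equal barcodes had -0.04 for ACG, 0.12 for ATC, 0.34 for CTT and -0.24 for GAT. For replicate numbers the value was positive except in replicate 1, where it was the closest to none, while barcodes had both signs. The main test took neither as pairs. A barcode block, added later, gave 32 calls (19 higher and 13 lower). Depth is one limit, with a median of 2 to 12 tags per window in a library.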
